A study of Drosophila melanogaster with 2 samples.

Results

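Small nucleolar RNA (snoRNA) genes and the genes that carry them were examined for binding of a GFP-tagged REPTOR (CG13624) protein in whole Drosophila melanogaster embryos. The members were all 269 genes of biotype snoRNA on the 6 chromosome arms, among 18164 annotated genes, together with the same-strand gene that contains each of them, its host. A host was found for 247 snoRNAs, and 22 had none. The 247 lay in 92 host genes, of which 28 code for cytoplasmic ribosomal proteins and 64 do not. The ribosomal protein hosts hold 71 snoRNAs and the other hosts 176.

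The embryos came from a transgenic line that stably expresses CG13624 with a C-terminal GFP, were aged 0 to 24 h and of mixed sex, and were precipitated with an antibody to GFP. There is 1 group, with 2 biological replicates numbered 1 and 3, and every embryo carried the fusion, so no group comparison exists. Whole embryos of all these ages mix many cell types and stages, and more cells with a binding event cannot be told apart from stronger binding per cell. Binding is described by the 5321 peaks of the reproducible (optimal) list, whose signal ran from 77.9 to 2773. A summit within 1000 bp of an annotated transcription start site (TSS) is called a promoter summit.

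REPTOR is a bZIP transcription factor that TORC1 signalling keeps out of the nucleus when nutrients are plentiful. Box C/D snoRNAs guide 2′-O-methylation and box H/ACA snoRNAs guide pseudouridylation, mostly of ribosomal RNA, and scaRNAs do the same for spliceosomal RNAs in Cajal bodies. In flies nearly all are cut from introns of a host transcript, so the host promoter usually drives them. Many hosts code for ribosomal or nucleolar proteins, and the Uhg (U snoRNA host gene) transcripts are non-coding RNAs that serve mainly as snoRNA carriers.

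The snoRNA sequences show what the class names mean. By name, 100 of the 269 were box C/D (Me, for methylation, or CD), 120 were box H/ACA (Psi, for pseudouridine, or ACA) and 49 could not be classed. Both C and D box letters (TGATGA within the first 15 bases and CTGA within the last 12) stood in 66 of the 100 named C/D and in 0 of the 120 named H/ACA. ACA within the last 8 bases stood in 114 of the 120 H/ACA and 6 of the 100 C/D. The C/D genes had a median length of 80 bp and the H/ACA genes of 140 bp. The following, from the RefSeq Release 6 genome at dm6 coordinates and 5′ to 3′ on the gene's strand with the box letters in capitals, are a C/D snoRNA of RpL13A (chr3R:5625367-5625441, + strand), an H/ACA snoRNA of RpS20 (chr3R:20822610-20822749, + strand), the H/ACA snoRNA with a summit inside it (chr3R:20574906-20575043, + strand), and a pair of copies from Arpc2, the host with the most snoRNAs (chr2L:20418348-20418481 and chr2L:20418670-20418804, + strand).
snoRNA:Me28S-U2134a: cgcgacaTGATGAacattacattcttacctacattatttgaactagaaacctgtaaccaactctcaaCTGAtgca
snoRNA:Psi18S-1295: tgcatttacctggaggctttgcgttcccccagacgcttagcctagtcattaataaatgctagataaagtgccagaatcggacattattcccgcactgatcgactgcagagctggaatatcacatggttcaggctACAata
snoRNA:Psi18S-301: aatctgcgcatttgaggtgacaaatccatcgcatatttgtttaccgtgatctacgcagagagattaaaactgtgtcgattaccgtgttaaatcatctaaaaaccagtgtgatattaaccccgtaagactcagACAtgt
snoRNA:Psi18S-525a: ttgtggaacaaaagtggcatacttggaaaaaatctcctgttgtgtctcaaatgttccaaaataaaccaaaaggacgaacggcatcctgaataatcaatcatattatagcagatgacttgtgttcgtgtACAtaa
snoRNA:Psi18S-525b: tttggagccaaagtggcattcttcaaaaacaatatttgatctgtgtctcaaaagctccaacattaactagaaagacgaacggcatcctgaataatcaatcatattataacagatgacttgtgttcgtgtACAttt

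REPTOR summits marked the promoters of most hosts. A promoter summit was present at 67 of 92 hosts (72.8%, exact 95% interval 62.6 to 81.6), where 30.3% of the 13945 protein-coding genes have one. Among ribosomal protein hosts the count was 25 of 28 (89.3%, 71.8 to 97.7), and among other hosts 42 of 64 (65.6%, 52.7 to 77.1). The intervals cover counting error only and treat genes as independent, which neighbouring genes that share a summit are not. Of the 64 ribosomal protein genes that host no snoRNA, 82.8% have a promoter summit (71.3 to 91.1, an interval that overlaps that of the hosts), and of all 92 ribosomal protein genes 84.8%. With a 500 bp window 66 hosts had a summit (background 27.0%) and with 2000 bp 70 (35.3%). From the strongest calls of replicate 3 alone, equal in number to the optimal list, 63 did (29.6%), and from those of replicate 1 alone 62 (30.4%). The 54 other protein-coding hosts stood above the coding background, with 37 (68.5%, 54.4 to 80.5).

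**Figure D1:**
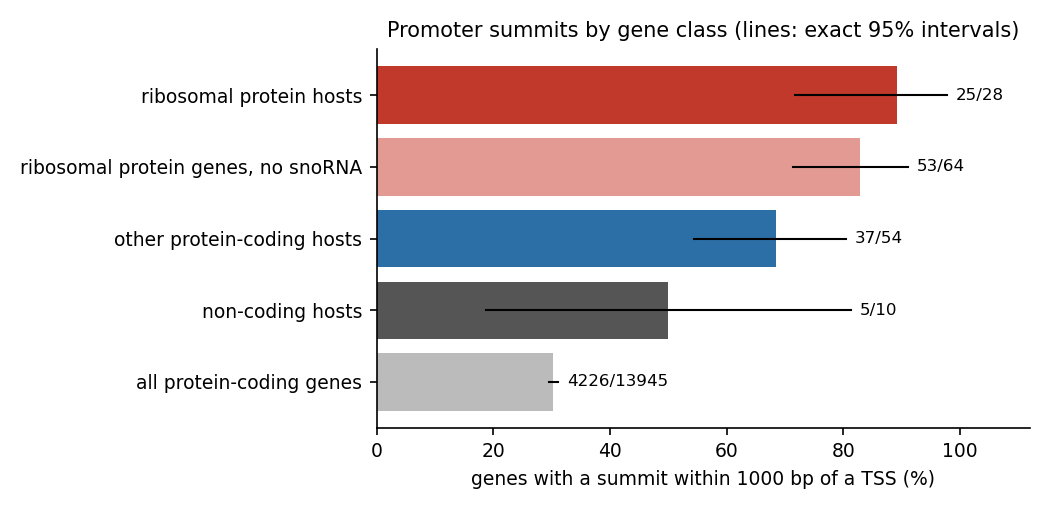
Share of genes with an optimal-list summit within 1000 bp of a TSS (percent), for 5 gene classes; the lines are exact 95% intervals and the fractions give the counts. Ribosomal protein genes with and without a snoRNA have overlapping intervals (25 of 28 and 53 of 64), and the other protein-coding hosts (37 of 54) lie above all protein-coding genes (30.3%).

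Genes with more start sites have more sequence in which a summit can fall, so the counts were also split by TSS number. Among protein-coding genes with 1 TSS, 24.1% have a promoter summit, against 12 of 12 ribosomal protein hosts and 14 of 26 other protein-coding hosts (53.8%, 33.4 to 73.4). With 2 TSSs the background is 42.4%, against 6 of 8 and 12 of 15. With 3 or more it is 58.7%, against 7 of 8 and 11 of 13. The host share was above the background in each class, but the intervals include it for 6 of 8 (34.9 to 96.8%), 7 of 8 (47.3 to 99.7%) and 11 of 13 (54.6 to 98.1%), and lie above it for 12 of 12 (73.5 to 100%) and 12 of 15 (51.9 to 95.7%). Of the 10 non-coding hosts, 5 have a promoter summit (interval 18.7 to 81.3%), where 13.0% of 2520 long non-coding and similar RNA genes do, and all 5 are Uhg genes, of which there are 7.

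The ribosomal protein hosts carried the stronger summits. The strongest promoter summit of each had a median signal of 244.2 (84.5 to 640.6) in the 25 ribosomal protein hosts and 147.3 (78.5 to 649.0) in the 42 other hosts, and the ranges overlap almost completely. Over all 4226 protein-coding genes with a promoter summit the median was 138.4, and over the 53 ribosomal protein genes without a snoRNA it was 166.0 (79.9 to 784.8). In the list of replicate 1 the same summits of ribosomal protein hosts had a median of 108.4, and in that of replicate 3 of 127.4. For the other hosts these medians were 72.9 and 76.2, so the order held in each replicate. The 1330 strongest of the 5321 optimal peaks held 15 of the 25 ribosomal protein and 16 of the 42 other hosts' strongest summits. The share for all protein-coding genes with a summit is not given.

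**Figure D2:**
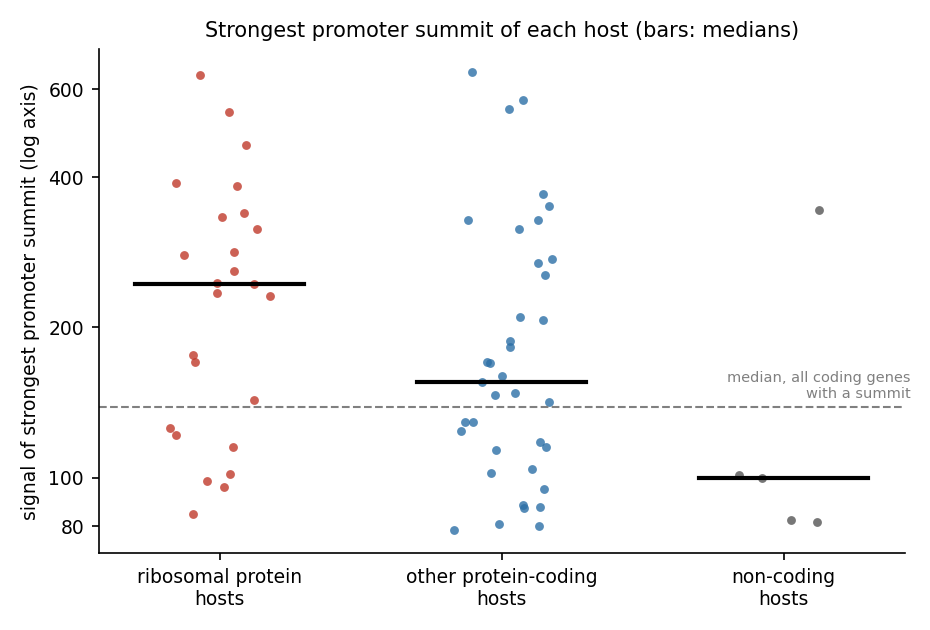
Signal of the strongest promoter summit (log axis) for every host that has one, by host class; each point is a host, bars are medians, and the dashed line is the median of all protein-coding genes with a promoter summit (138.4). The ribosomal protein hosts have a median of 244.2, and the classes overlap over most of their range.

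Large-subunit genes led the ribosomal protein hosts. RpL22, which has 1 snoRNA of its own, stood at 640.6 (peak at chrX:765022-765400 of dm6, rank 83 of the optimal list), with 296.1 in replicate 1 and 348.5 in replicate 3. Its summit lay 90 bp upstream of the TSS, and a start of lncRNA:CR44966 lay nearer to it. RpL14 (chr3L:8600786-8601110) followed at 540.5, with 249.5 in replicate 1 and 295.3 in replicate 3. RpS20 (chr3R:20821855-20822179), the strongest small-subunit host, stood at 464.4 (237.5 and 219.3), with its summit 157 bp upstream of the start. These were high in both replicates, among the first 213 calls of each.

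RpL30 (388.8) and RpL13A (384.5) came next, then RpL17 (339.7), RpL11 (332.6) and RpS29 (314.7). RpL28 stood at 283.7, RpS16 at 278.9, RpS5a at 258.9 and RpL4 at 245.1. All these code for structural proteins of the cytoplasmic ribosome. The 13 large-subunit hosts with a summit had a median of 283.7 and the 12 small-subunit hosts of 232.9, with overlapping ranges (95.9 to 640.6 and 84.5 to 464.4).

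Other ribosomal protein hosts with a summit included RpS3A (244.2), RpS4 (235.0), RpS12 (230.9), sta (175.9), RpL3 (170.4), RpL36A (143.4) and RpL10Ab (125.8), and with lower signals RpL27A (122.1), RpS7 (115.5), RpS6 (101.5) and RpL7A (95.9).

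The ribosomal protein hosts without an optimal promoter summit were RpS9, RpL15 and RpL5, and each had a weaker pooled call. RpS9 had a pooled call of 77.7 at its promoter, rank 5339 of the pooled list, just under the lowest optimal signal of 77.9. RpL15 had a pooled call of 67.3 and RpL5 of 53.8. Signals of the optimal list are those of the pooled list, so these values can be read on the same scale. Of all 25 hosts without an optimal promoter summit, 22 had a pooled call within 1000 bp of a TSS (median 53.3, 22.7 to 77.7). With optimal calls included, 89 of 92 hosts had a pooled call there (96.7%), and so did 62.1% of protein-coding genes. The 3 with no call at all were CG31191, lds and lncRNA:CR42491.

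Some ribosomal protein hosts near the bottom of the range differed between the replicates. RpL10Ab (optimal signal 125.8) had 97.6 in replicate 1 and 27.9 in replicate 3, and RpS6 (101.5) had 33.1 and 78.5. Their ranks in replicates 1 and 3 were 1205 and 9695 for RpL10Ab, and 6780 and 1918 for RpS6. Over the 67 hosts, log2 of the replicate 1 signal over the replicate 3 signal was -0.07 at the median, with an SD of 0.51. Signal is comparable within 1 list only, so such ratios also hold any difference in scale between the lists. A ratio past 2-fold was found at 5 of 67, against 4.54% of the 5304 optimal peaks matched in both lists. The other 3 were pit (68.8 and 32.0), Uhg1 (28.5 and 63.8) and Uhg5 (29.9 and 74.1). A rank within the first 5321 calls of each replicate's list was reached by 22 of the 25 ribosomal protein and 32 of the 42 other hosts. The same share over all optimal peaks is not given, so these counts are not read as a trait of hosts.

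Outside the ribosome the strongest hosts had varied functions. The highest signal of any host, 649.0 (314.3 in replicate 1 and 326.3 in replicate 3), lay at chrX:21054159-21054512, 400 bp upstream of Stt3A, which codes for a catalytic subunit of oligosaccharyltransferase, but bves has its start nearer to that summit. CG1142 stood at 569.7 (273.9 and 291.7) and Msp300, a nesprin that links nuclei to the cytoskeleton, at 546.9 (248.8 and 296.8). Below them came hts, an adducin (370.9), and tou, a chromatin-remodelling protein (350.4).

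The non-coding Uhg4 (chr2R:9095035-9095332) stood at 343.9, and Edc3, a decapping enhancer, and CG12316 both at 328.6. CG3902 stood at 315.6, from a summit 672 bp upstream that lies nearer to RpL26, a ribosomal protein gene without a snoRNA. Next were the elongation factor gene eEF1alpha1 (274.5), the transcription factor gene lola (269.6) and Dys, the dystrophin gene (254.9). Hosts of RNA processing were found across the range: pAbp stood at 207.0, Prp39 at 142.1, tra2 at 115.2 and hfp at 78.5, and SC35, Prp8 and Sf3b3 had pooled calls alone, of 56.4, 44.2 and 63.0. The Prp39 value came from a summit 826 bp upstream that lies nearer to wdn. The host was the gene nearest to its strongest summit at 23 of 25 ribosomal protein and 32 of 42 other hosts. Another gene's TSS lay within 1000 bp of that summit at 18 of 25 and 29 of 42, a share like that of all protein-coding genes with a summit (66.2%). For such shared promoters the peak list cannot assign the summit to either gene.

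Summits sat closer to the start of ribosomal protein hosts. The strongest summit lay a median of 34 bp from the nearest TSS (3 to 157 bp), and within 100 bp at 23 of 25. At other hosts the median was 99 bp (1 to 826 bp), with 21 of 42 within 100 bp. The ribosomal protein genes without a snoRNA had a median of 38 bp and all protein-coding genes with a summit 130 bp. The summit lay upstream of its nearest TSS at 18 of 25 ribosomal protein hosts and 30 of 42 other hosts, where 79.2% of all protein-coding genes with a summit have it upstream. More than 1 promoter summit was present at 3 of 28 ribosomal protein hosts and 14 of 64 other hosts, against 5.98% of protein-coding genes. The gene drn had 4. This background is not split by TSS number, and drn has 5 TSSs.

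**Figure D3:**
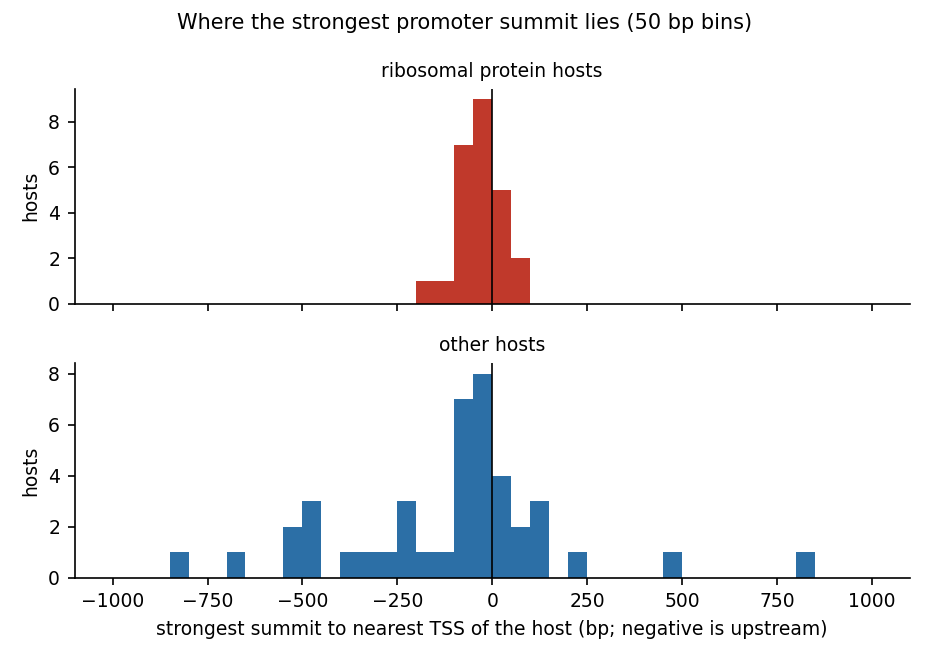
Number of hosts by the position of their strongest promoter summit relative to the nearest TSS (50 bp bins, negative values upstream), ribosomal protein hosts above and other hosts below. Ribosomal protein hosts lie within 157 bp of the start, while other hosts spread as far as 826 bp.

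The sequence under some summits is shown because it holds letters of known core-promoter elements of housekeeping genes. TATCGATA, the DNA replication-related element (DRE), was searched within 50 bp of each host's strongest summit on both strands and found at 6 of 67 hosts (8.96%; 4 of 25 ribosomal protein hosts), against 3.55% of all optimal summits in windows of the same length. The hosts were RpS29, RpL28, RpS12, RpL36A, pths and Nop60B. GGTCACACT (Motif 1) was found at RpL27A, 1 of 67 hosts, against 1.64%. TGACGT, a CRE half-site of the kind that bZIP proteins can bind, was found at RpL13A, 1 of 67, against 2.31%. CACGTG, the E-box, was found at RpL11, Nop60B and Uhg1, 3 of 67, against 1.32%. The host summits all lie within 1000 bp of a TSS, while the comparison shares also take in summits away from promoters. They are therefore not like for like, and a share over promoter summits alone is not given. All these counts are small, no motif contains another, and absence of exact letters from a window says nothing of the factor. The windows below run from 50 bp before to 50 bp after the summit, stop 20 bases past the TSS, and read 5′ to 3′ on the gene's strand with the motif in capitals. They are RpL28 (chr3L:3222965-3223065, - strand), RpS12 (chr3L:13023281-13023371, + strand) and pths (chr2L:21143092-21143192, + strand), with the DRE; RpL13A (chr3R:5624351-5624451, + strand) with the CRE half-site, read here as its reverse complement; and RpL14 (chr3L:8600909-8601009, + strand) with CTTT of the initiator.
RpL28: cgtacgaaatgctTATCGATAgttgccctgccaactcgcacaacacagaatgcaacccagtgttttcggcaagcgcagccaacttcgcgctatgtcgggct
RpS12: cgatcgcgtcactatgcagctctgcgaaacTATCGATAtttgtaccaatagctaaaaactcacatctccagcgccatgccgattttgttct
pths: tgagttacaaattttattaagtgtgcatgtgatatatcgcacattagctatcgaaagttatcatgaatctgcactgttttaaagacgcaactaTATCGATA
RpL13A: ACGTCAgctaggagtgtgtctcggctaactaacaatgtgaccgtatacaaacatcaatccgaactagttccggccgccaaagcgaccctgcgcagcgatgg
RpL14: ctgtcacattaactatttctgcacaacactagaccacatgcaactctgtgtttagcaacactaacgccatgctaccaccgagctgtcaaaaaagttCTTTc

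Ribosomal protein genes of flies start transcription in a pyrimidine run (the TCT initiator), and CTTT letters were counted at the starts on the gene's strand. Within 5 bp of a TSS they stood at 6 of 28 ribosomal protein hosts, 8 of 64 other hosts and 18 of 64 ribosomal protein genes without a snoRNA, against 5.73% of protein-coding genes. Within 20 bp, a width chosen after the first counts were seen, they stood at 24 of 28 ribosomal protein hosts and 57 of 64 ribosomal protein genes without a snoRNA, and at 28 of 64 other hosts, 3 of the 7 Uhg genes among them, against 3492 of the 13945 protein-coding genes.

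The hosts with the most snoRNAs mostly had promoter summits, many of low signal outside the ribosomal protein genes. A promoter summit was present at 17 of the 20 hosts with 4 or more snoRNAs, which together hold 153 of them, against 67 of all 92 hosts, 30.3% of protein-coding genes and 13.0% of non-coding RNA genes. Their median signal was 124.1, against 206.9 for hosts with 2 or 3 snoRNAs and 169.8 for hosts with 1. All 6 ribosomal protein hosts of this kind had a summit (median 268.9), as did 11 of the 14 others (median 101.5). Within the other hosts, those with 1 to 3 snoRNAs had a median of 169.8 (31 of 50 with a summit). Spearman's rho between the number of snoRNAs and the strongest signal was -0.31 over the 42 other hosts and 0.05 over the 25 ribosomal protein hosts, as a description of genes measured in the same libraries.

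Arpc2, which codes for a subunit of the actin-nucleating Arp2/3 complex, hosts the most snoRNAs, 17, and had a summit at 80.2 (45.5 in replicate 1 and 33.8 in replicate 3), near the floor of the list. Its snoRNAs are tandem copies: 10 of the Psi18S-525 family and 7 of the Psi18S-640 family. Pairs of the 10 copies are identical at 65.0 to 90.4% of aligned positions. Uhg1 (16 snoRNAs) stood at 81.7 and dom, the Domino remodelling ATPase gene (15), at 124.1. RpS5a (14 snoRNAs) was the exception at 258.9, with 108.4 and 151.1 in replicates 1 and 3. Among its snoRNAs are 6 copies of Psi28S-1135, the most alike of which share 99.3% of positions.

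Uhg5 (11 snoRNAs) stood at 99.7, kra, a translation regulator gene (8), at 102.2, and RpS7 (7) at 115.5. Hrb98DE, an hnRNP gene (7), stood at 88.4, and Nop60B, which codes for the H/ACA pseudouridine synthase (7), at 87.4. Uhg4 (7) was the strongest of this group at 343.9, with 198.0 in replicate 1 and 144.8 in replicate 3. With 5 snoRNAs each, RpL28 and RpS16 stood at 283.7 and 278.9 and CG10576 at 148.1. With 4, RpL17 stood at 339.7, lola at 269.6, RpL3 at 170.4 and Uhg2 at 101.5. At each of the 17 hosts the start of another gene lay within 1000 bp of the summit, though the host was the nearest gene at all 17.

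**Figure D4:**
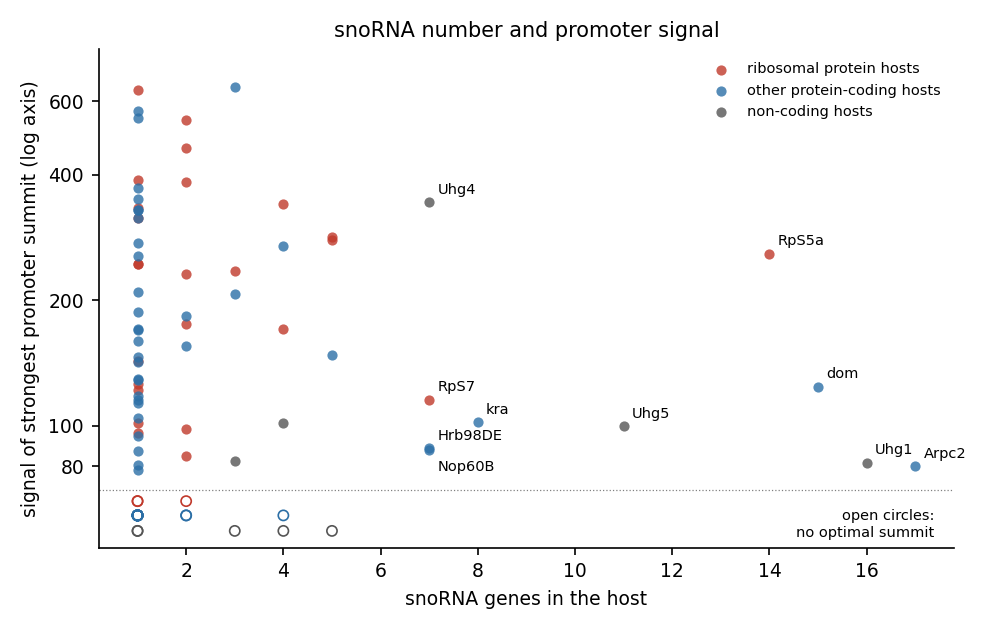
Signal of the strongest promoter summit (log axis) against the number of snoRNA genes in the host; filled points are hosts with a summit, colours give the host class, and open circles under the dotted line are hosts with no optimal promoter summit, at arbitrary heights. Apart from RpS5a and Uhg4, hosts with 7 or more snoRNAs lie at or below 124.1.

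The 3 hosts with 4 or more snoRNAs and no summit were Sf3b3, a splicing factor gene (4 snoRNAs, pooled call 63.0), lncRNA:CR45184 (5, pooled call 27.3) and Uhg7 (4, pooled call 31.3). Here the choice of host matters. There were 12 snoRNAs inside more than 1 same-strand gene, and the shortest was taken as host. The 4 snoRNAs of Uhg7 also lie inside RpL23A, whose promoter held a summit of 622.2 (320.9 and 295.5 in replicates 1 and 3). Psi18S-531, given to lncRNA:CR42491, also lies inside RpL22 (640.6). The 5 snoRNAs of lncRNA:CR45184 also lie inside Sf3b3, which has no summit.

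Summits within 1000 bp of a snoRNA were mostly promoter summits of its host, and only 1 summit lay inside a snoRNA gene. A summit lay within 1000 bp of 71 of 269 snoRNAs (26.4%, 21.2 to 32.1), and these 71 shared 45 summits with a median signal of 157.6. By comparison 7.01% of the bases of the arms lie that near a summit, as do 13.8% of 290 tRNA genes, 13.8% of 260 miRNA hairpins and 34.4% of 32 snRNA genes. Of snoRNAs in ribosomal protein hosts 28 of 71 had such a summit (39.4%, 28.0 to 51.7), in other hosts 37 of 176 (21.0%) and without a host 6 of 22 (27.3%). The snoRNAs of ribosomal protein hosts also lie nearer to the host's start, at a median of 874 bp against 1796 bp.

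Distance from the host's start ordered the shares. The 1000 bp window of a snoRNA near a host start can take in the promoter summit itself, so the counting rule links distance and share. Of snoRNAs within 1000 bp of a host TSS, 51 of 86 had a summit (59.3%, 48.2 to 69.8), and 22.0% of bases in protein-coding genes that near a TSS do. Of those over 1000 bp from every host TSS, 14 of 161 did (8.70%, 4.84 to 14.2), with 9 summits among them. Of protein-coding gene bases over 1000 bp from every TSS, 3.36% do. The 161 can lie near the start of another gene, while these bases cannot, so the sets are unlike. The interval also treats snoRNAs that share a summit as independent. Measured from every gene's start except those of snoRNAs, 9 of 81 snoRNAs more than 1000 and up to 2000 bp away had a summit. Of protein-coding gene bases at that distance, 5.37% lie within 1000 bp of a summit. Farther away, 7 of 72 snoRNAs and 2.83% of such bases do. Among these 7, Me28S-G2703b, Me28S-G2703c and Or-CD4 of the non-coding Uhg5 share a summit. Or-ACA6, Or-CD13 and scaRNA:MeU1b-A234, which have no host, share another. The bases lie in protein-coding genes only, so the sets are not like for like. None of the 29 snoRNAs of ribosomal protein hosts over 1000 bp from every host TSS had a summit within 1000 bp. The strongest promoter summits of ribosomal protein hosts lay within 157 bp of a start, and whether that accounts for the count was not tested. Of the 65 snoRNAs with a host and a summit, 56 had only summits that were promoter summits of that host. A contribution of the snoRNA gene apart from the host promoter was not tested.

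**Figure D5:**
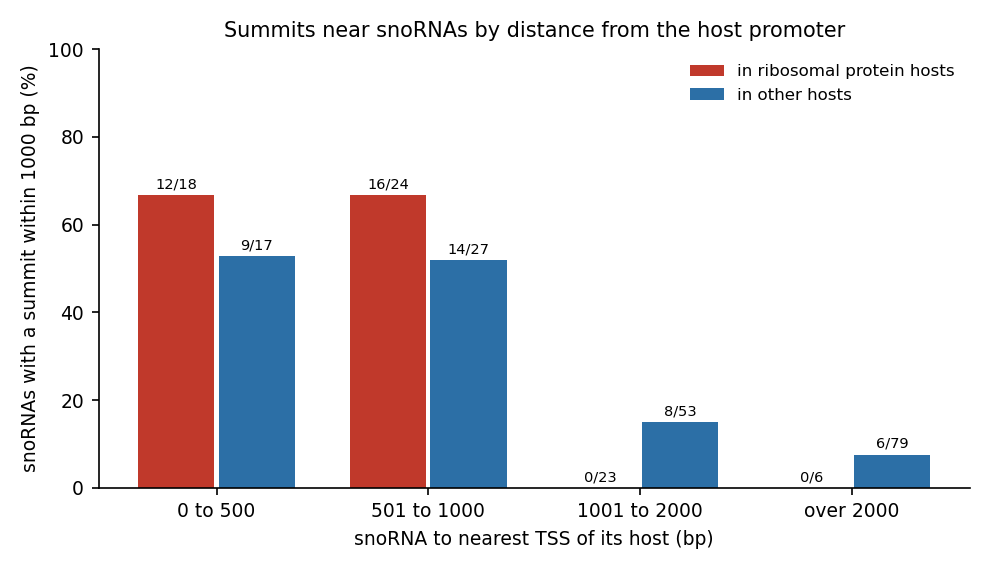
Percent of snoRNA genes with a summit within 1000 bp, by the distance of the snoRNA from the nearest TSS of its host, for ribosomal protein and other hosts; fractions give the counts. Shares fall beyond 1000 bp, to 0 in ribosomal protein hosts.

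Few summits stood near snoRNAs away from a host start. The strongest, 328.6, lay 798 bp from Edc3-a and was the Edc3 promoter summit. Likewise Psi18S-1347a in pAbp, the poly(A)-binding protein gene (207.0), and Me28S-U3344a in Stt3A (169.3) were near summits 497 and 614 bp downstream of their hosts' nearest starts. The next was different: Me28S-G2703b, Me28S-G2703c and Or-CD4 of Uhg5 share a summit of 157.6 (chr2R:14624485-14624920), which lies 3102 bp downstream of the Uhg5 start and past the annotated 3′ end of the gene, with no other start of a non-snoRNA gene nearer. It had 78.1 in replicate 1 and 75.7 in replicate 3, and was stronger than the Uhg5 promoter summit of 99.7. A summit of 105.2 near abba-a, in tn, lay 3283 bp downstream of the tn start, again with no other start of a non-snoRNA gene nearer, and tn has no optimal promoter summit. It had 44.0 in replicate 1 and 57.3 in replicate 3. The snoRNAs lola-a, lola-b and lola-c share a summit of 99.5, 962 bp upstream of a lola start, which had 24.4 in replicate 1 and 72.6 in replicate 3. The Or-CD9 pair of Nop60B lies near a summit of 90.1 that is 56 bp from the start of ocm, 11770 bp from that of Nop60B.

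Among the 22 snoRNAs without a host, scaRNA:MeU1b-A234, Or-ACA6 and Or-CD13 share a summit of 288.2 at chr2R:10081740-10081971 (150.1 in replicate 1 and 136.8 in replicate 3). It lay 3316 bp from the nearest start of a non-snoRNA gene, but only 400 bp from Or-CD13 and 528 bp from Or-ACA6. A short unclassed snoRNA had a summit of 140.5 that lay 356 bp from the start of a tRNA:Glu-TTC gene. The summit near scaRNA:MeU1:95C-A24, at 84.4, lay 153 bp from snRNA:U1:21D. Psi18S-301, whose sequence is given above, is the one snoRNA of the 269 with a summit inside it, at 85.5 (50.1 and 37.9 in replicates 1 and 3), near the floor of the list. The nearest start of a non-snoRNA gene lay 2044 bp from that summit.

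Box classes differed in where they sit. A summit lay within 1000 bp of 40 of 100 C/D and 17 of 120 H/ACA snoRNAs, against 7.01% of the bases of the arms. Among those within 1000 bp of a host TSS the counts were 30 of 46 (65.2%, 49.8 to 78.6) and 13 of 26 (29.9 to 70.1), with overlapping intervals. Of bases in protein-coding genes that near a TSS, 22.0% lie within 1000 bp of a summit. Among those farther away they were 7 of 47 and 2 of 85, against 3.36% of protein-coding gene bases over 1000 bp from every TSS. Hosts with a promoter summit carried 102 of the 120 H/ACA and 73 of the 100 C/D snoRNAs. Such a summit is present at 72.8% of hosts and 30.3% of protein-coding genes. Members of a class share hosts (42 hosts for C/D and 35 for H/ACA), so the snoRNAs are not independent observations. Classes were taken by name, and the unclassed snoRNAs are in neither count. Some of them hold both C and D box letters, U29:54Eb and U31:54Eb of Uhg1 among them. In 24 hosts there are 37 families of copies, 117 snoRNAs in all, and how similar copies affected read placement was not tested.

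The proteins that bind snoRNAs were looked at as a list of 14 genes, of which 10 had a promoter summit, against 30.3% of protein-coding genes. Of the C/D core, Fib, the fibrillarin methyltransferase gene, stood at 169.8 (74.5 in replicate 1 and 99.2 in replicate 3). Nop56 stood at 87.7. The summit for hoip (79.3) lay 812 bp downstream of its start and nearer to another gene, and nop5 had no optimal summit (pooled call 52.8).

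Of the H/ACA core, NHP2 stood at 122.9, Nop10 at 120.9 and Nop60B at 87.4, and Gar1 had no optimal summit (pooled call 41.6). NHP2 and Nop10 ranked higher in the list of replicate 1 (1344 and 1491, signals 91.6 and 86.8) than in that of replicate 3 (6702 and 10701, signals 36.1 and 26.1). Of assembly and nuclear-body genes, rept and pont, the ATPases of the R2TP complex, stood at 193.5 and 155.7, and Nopp140, a nucleolar phosphoprotein gene, at 161.9. The summit for coil, the coilin gene, was 84.6, with 57.8 in replicate 1 (rank 3065) and 28.1 in replicate 3 (rank 9549). Those of pont and coil lay nearer to another gene. CG10055 (pooled call 40.7) and CG10341 (20.5), the fly genes related to Shq1 and Naf1, had none. Fib, Nop60B and nop5 are themselves hosts.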

How the data were processed

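Chromatin immunoprecipitation with sequencing (ChIP-seq) was done on sonicated chromatin (fragments of 200 to 800 bp per the labels) from 2 biological replicates. The authors deposited peak lists on dm6: calls on each replicate against a control, calls on both replicates together, and an optimal list of pooled calls that passed an irreproducible discovery rate (IDR) threshold, per the deposited notes. The sources used here name no aligner, peak caller or version. Each peak's signal is the authors' own value, comparable within one list only, and read depth is unknown. The replicate and pooled lists hold 30000 calls each. The summit offset (column 10) gave 1-based summits.

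Genes came from Ensembl release 115 (BDGP6) and sequences from the RefSeq Release 6 genome, the same assembly. The host was the shortest same-strand gene containing the whole snoRNA. Starts of snoRNA genes were left out when the start or gene nearest to a summit was sought. Ribosomal protein genes were taken by symbol, which includes a few -like paralogs and sta. Named are the 12 ribosomal protein and 12 other hosts with the strongest promoter summit, hosts with 4 or more snoRNAs, ribosomal protein hosts without a summit, the 5 strongest snoRNAs away from the host start and the 5 strongest without a host, and the snoRNP list; other genes were named after their values were seen. Members and lists were chosen with earlier results of these data known. No test was made: shares have exact (Clopper-Pearson) 95% intervals. Python 3.11.15, numpy 2.4.6, scipy 1.17.1, Biopython 1.88 (alignments) and matplotlib 3.10.9 were used, and the host, promoter and distance steps were checked on simulated data. Alternatives were windows of 500 and 2000 bp, the stronger part of the list (2660 peaks), pooled calls, single replicates and other host rules.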

Additional observations from a re-analysis of the deposited data

How the results depend on the processing

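Counts of ribosomal protein hosts stayed within 1.5 times the reported 25 under every alternative. Their median signal was taken again only for the other windows, 2 other host rules, the nearest gene and the nearest summit. It was 244.2 to 245.1, a change smaller than the scaled SD between the medians of the 2 replicates. With only the 2660 strongest peaks, 44 hosts and 25 other hosts kept a promoter summit (background 17.5%). With the nearest gene only, 57 hosts did (background 21.9%). snoRNAs with a nearby summit numbered 21 with 500 bp, 147 with 2000 bp, 42 with the strongest peaks and 176 with pooled calls. Those far from the host start numbered 3, 16, 6 and 81 in the same order. The 500 and 2000 bp settings also move the distance that counts as far (212 and 85 snoRNAs). The share of bases near a summit is not given for any other setting. The snoRNA counts in this section therefore have no background beside them. The median of other hosts was 129.5 with 500 bp, 170.4 with 2000 bp and 129.3 with the nearest summit. From 1 replicate's first 5321 calls, the ranges were 62 to 63 hosts, 23 to 25 ribosomal protein hosts, 38 to 39 other hosts, 60 to 73 snoRNAs and 13 to 18 far from the host start. Counting every containing gene, chosen after seeing the data, gave 69 of 95 hosts. The cause of these shifts was not tested. No paired analysis was possible because there is 1 group and no test. Read depth is unknown, so absence of a summit is not absence of binding.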
